A study of Mus musculus with 12 samples.

Results

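The enzymes described here are the soluble glutathione S-transferases (GST), the UDP-glucuronosyltransferases (UGT) and the sulfotransferases (SULT) of the mouse liver. Members were chosen by gene symbol alone: a symbol that begins with Gst, 1 of the class letters a, k, m, o, p, t or z and a digit, with Ugt1, Ugt2 or Ugt3 and then a or b, or with Sult and a digit. Among the 20069 genes of the table, 49 were members, of which 20 were GST, 20 UGT and 9 SULT genes. Poly(A) RNA was measured by RNA-Seq in the livers of wild-type C57BL/6 male mice, 3 to 6 months old. The mice had been kept for at least 2 weeks in 12 hr of light and 12 hr of dark, with no other treatment. Livers were taken at 6 zeitgeber times (ZT, hr after lights on), ZT2, ZT6, ZT10, ZT14, ZT18 and ZT22. Each time point was sampled in 2 series, called replicate 1 and replicate 2, which gives 12 samples.

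These families carry out the conjugation step of drug, hormone and bile pigment metabolism. A GST joins glutathione to an electrophilic compound, a UGT transfers glucuronic acid from UDP-glucuronic acid, and a SULT transfers sulfate from the donor PAPS, and the products are generally more soluble and are excreted in bile or urine. The liver is a main site of all 3 reactions, and the classes within a family differ in the compounds they accept.

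Signal is given in reads per base pair of exon (rpbp) on the scale of 40000000 uniquely mapped sequences, so that levels can be set side by side between genes per length. The files give mean coverage and no counts of reads, so counting intervals cannot be given. A gene counted as expressed with at least 1 sample above 8 rpbp. F24 is the share of the variance of the 12 values that a 24 hr cosine takes up, amplitude is the highest over the lowest of the 12 values, and the peak is that of the fitted cosine. A gene was called rhythmic where the permutation p was below 0.05, F24 exceeded 0.45 and the amplitude exceeded 1.5. For a strong rhythm the limits of F24 and amplitude were 0.6 and 1.75. This p is not adjusted for the number of genes. The sources used here do not say whether a sample was 1 liver or a pool, and SDs and p-values measure the spread between these samples.

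The ZT2 samples stood apart from the other 10. Over all expressed genes, the correlation of log2 signal between a ZT2 sample and one of another time point had a median of 0.944, against 0.967 between samples of the other time points, while samples of the same time point correlated at 0.975 to 0.987. Saa1, an acute phase gene, was at 14312 and 12918 rpbp in the ZT2 samples, 5249 in ZT22 replicate 2 and 57.8 to 233 in the other 9. The summed signal of 6 hepatocyte markers was 83223 to 86185 rpbp at ZT2 and 123342 to 157851 elsewhere, with Alb, the largest of them, Ttr and Tat below all other samples and Apoa1 and Serpina1a above. That of 5 Kupffer cell markers was 544 to 547 rpbp at ZT2 and 261 to 432 elsewhere, with 4 of the 5 above all other samples and Marco, the other 1, below the minimum. Sums of 5 endothelial (192 to 193 at ZT2, 166 to 201 elsewhere) and 4 stellate markers (194 to 207, and 185 to 241) overlapped, as did those of cholangiocyte, red blood cell and small intestine markers, while the adipose and kidney markers in the table stayed at or under 0.40 rpbp. Most of the hepatocyte sum was Alb, at 50445 and 53126 rpbp at ZT2 and 93174 to 122523 elsewhere. The hepatocyte markers did not all move in the same direction. In a bulk tissue, fewer cells of a type, less RNA per cell and a change in single marker genes cannot be told apart. The part of these differences in the results on the members was not tested, and results are given with and without the ZT2 samples.

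Of the 49 members, 42 were expressed: 19 of 20 GST, 18 of 20 UGT and 5 of 9 SULT genes. The 7 below the minimum were Gsto2, Ugt2a1, Ugt2a2, Sult1e1 (estrogen sulfotransferase), Sult2b1, Sult3a1 and Sult4a1, none of which exceeded 2.20 rpbp in any sample. Expressed GST genes spanned mean signals from 2.06 rpbp (Gsta1) to 2824 rpbp (Gsta3), and the 4 most abundant were Gsta3, Gstm1 (2049 rpbp), Gstp1 (1372 rpbp) and Gstz1 (1082 rpbp), the maleylacetoacetate isomerase of tyrosine breakdown. The UGT means ran from 3.79 rpbp (Ugt2b37) to 1226 rpbp, and 16 of the 18 expressed members, 8 of them the Ugt1a genes with shared reads, had a mean above 100 rpbp, led by Ugt2b5 (1226 rpbp), Ugt2b36 (1184 rpbp), Ugt2b1 (1061 rpbp) and Ugt1a1 (906 rpbp), the bilirubin-conjugating form. The SULT genes were the lowest family, with Sult1a1 (346 rpbp), the phenol sulfotransferase, and Sult1d1 (174 rpbp) above Sult5a1 (34.5 rpbp), Sult1b1 (34.0 rpbp) and Sult1c2 (7.05 rpbp). In the order of SULT means, Sult5a1 and Sult1b1 had overlapping samples, whereas the lowest sample of Sult1d1 (102 rpbp) was above the highest of Sult5a1 (93.8 rpbp).

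**Figure D1:**
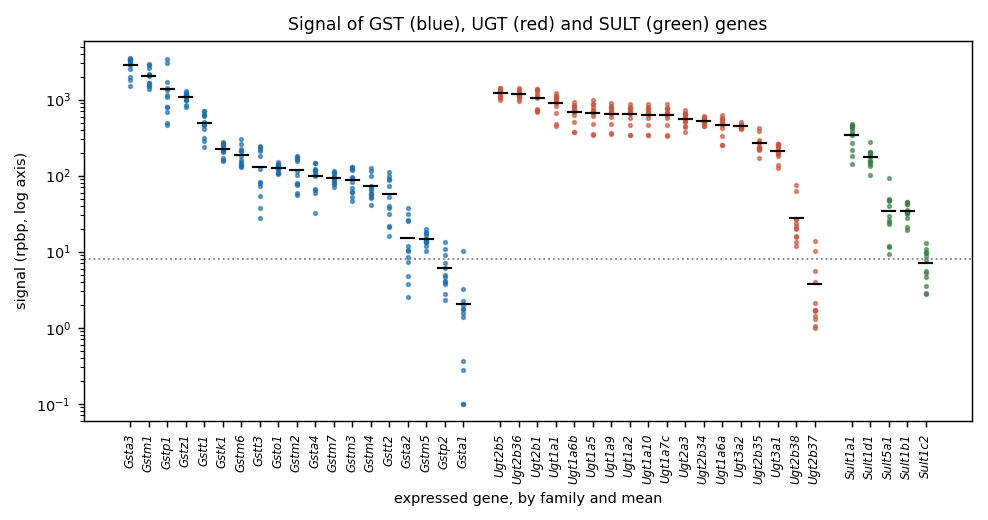
Signal in rpbp on a log axis for the 42 expressed members, with a point for each of the 12 samples (values under 0.1 rpbp are drawn at 0.1), a black line at the mean and a dotted line at the expression minimum of 8 rpbp. GST means run from 2.06 to 2824 rpbp and UGT means from 3.79 to 1226 rpbp.

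Some members cannot be measured apart from each other. The 8 Ugt1a genes lie at one locus of chromosome 1 (mm9, chr1:89951963-90116577), where each first exon is spliced to the same later exons. In the GENCODE annotation of that build each Ugt1a gene shared 48.8% to 78.3% of its exon bases with another, and the last 740 coding bases were identical in all 8. The shared part begins with the capitals in the lines that follow, which give the last 30 coding bases (lower case) before the identical stretch and the first 30 bases of it, 5′ to 3′ on the plus strand. They are shown because they mark where the coding sequence common to all 8 genes begins.
Ugt1a1: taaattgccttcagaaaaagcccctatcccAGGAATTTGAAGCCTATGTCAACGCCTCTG
Ugt1a2: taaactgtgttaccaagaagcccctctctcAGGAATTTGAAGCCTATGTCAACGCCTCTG
Ugt1a5: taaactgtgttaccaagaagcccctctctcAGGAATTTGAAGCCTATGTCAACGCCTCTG
Ugt1a6a: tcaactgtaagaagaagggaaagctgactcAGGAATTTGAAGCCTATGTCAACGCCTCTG
Ugt1a9: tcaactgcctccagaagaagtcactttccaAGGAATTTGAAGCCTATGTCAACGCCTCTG
Ugt1a2 and Ugt1a5 also had the same 30 bases before the stretch, as did Ugt1a6a and Ugt1a6b. Because the exons of every gene were summed in full, a read in the shared exons entered all 8 values, and over the 12 samples the Pearson correlation between any 2 Ugt1a genes was at least 0.981. They are therefore given together, and family counts are repeated with Ugt1a as 1 gene.

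Gstp1 and Gstp2, of the pi class, are neighbours on chromosome 19 (mm9, chr19:4035411-4037921 and chr19:4040291-4042221, both on the minus strand). Their coding sequences of 633 bases differed at 12 positions (98.1% identity), and 67.5% of the 50-base windows of Gstp1 transcripts also occurred in another member. The first 60 coding bases hold 6 of the 12 differences, in capitals, and show how far apart the sites are at which a read can be assigned.
Gstp1: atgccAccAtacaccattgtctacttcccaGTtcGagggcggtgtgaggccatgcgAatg
Gstp2: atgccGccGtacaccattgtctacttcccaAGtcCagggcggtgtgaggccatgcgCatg
The same share was 44.6% for Gsta1, 32.9% for Gsta2, 41.1% for Ugt2b5 and 37.4% for Ugt2b38, and since only uniquely mapped reads were kept, the levels of these genes are uncertain. Ugt2b37 (18.3%), Gstm3 (15.3%) and Gstm1 (12.7%) shared less. The paper's reads were longer than these 50-base windows, so the share of reads without a unique place may be smaller than these shares. Counting did not use strand, and 19.9% of the exon bases of Gstt3 and 13.9% of those of Gstm5 overlapped another annotated gene.

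Of the 42 expressed members, 23 (54.8%) were called rhythmic over 24 hr, against 19.1% of all expressed genes. By family these were 10 of 19 GST, 10 of 18 UGT and 3 of 5 SULT genes. With Ugt1a as 1 gene, 3 of 11 UGT genes and 16 of 35 members (45.7%) were called. Strong rhythms were called in 11 members (7 GST, 2 UGT and 2 SULT), where the background was 7.89%. The median F24 of the expressed members was 0.54 (0.31 over all expressed genes) and the median amplitude was 2.57 (1.64 over all). Their median level was 243 rpbp (174 with Ugt1a as 1 gene), against 22.85 over all expressed genes. The backgrounds given here and below are not matched for level, and the part of this gap in the differences was not tested. After Benjamini-Hochberg adjustment over all expressed genes, 2 members had a permutation p below 0.05, Gstm4 and Sult1b1, against a background of 5.62%, so that the individual calls rest on unadjusted p-values. A limma F-test of a 24 hr cosine had an adjusted p below 0.05 in 7 members (4 GST, 1 UGT and 2 SULT), against 8.61%. The difference in the share of rhythmic genes between families was not tested.

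The called members mostly reached their fitted peak between late morning and early night. Peaks of 9 of the 10 called GST genes lay between 6.15 and 12.1 hr (median 9.22 hr), those of 9 of the 10 UGT genes between 10.7 and 13.3 hr (median 11.1 hr), and those of the 3 SULT genes between 12.3 and 13.2 hr (median 12.6 hr). The exceptions were Gstp2, at 0.59 hr, and Ugt2b35, at 3.76 hr. In all, 21 of 23 called members peaked between 6 and 14 hr (14 of 16, and 2 of 3 UGT genes, with Ugt1a as 1 gene), against 37.9% of the 1948 called genes. In all 23 called members the peaks of replicate 1 and replicate 2 taken alone were within 4 hr of each other, as they were in 98.3% of all called genes. Without the ZT2 samples the median peak was 7.73 hr for the 9 called GST genes and 8.42 hr for the 9 called UGT genes, and the 2 called SULT genes peaked at 6.28 and 11.7 hr, so the peak times depend on those samples too.

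**Figure D2:**
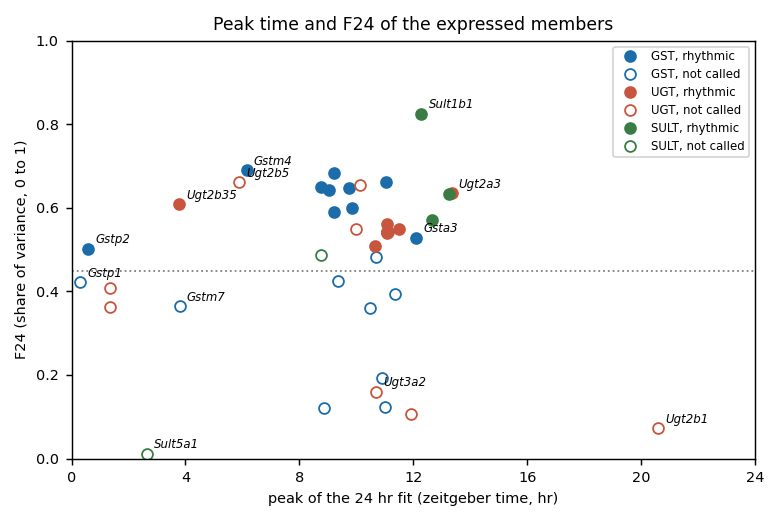
F24 (share of variance, 0 to 1) against the fitted peak in zeitgeber hr for the 42 expressed members, filled where called rhythmic and open where not, with a dotted line at the F24 limit of 0.45. Filled points crowd between 6 and 14 hr, with Gstp2 and Ugt2b35 apart from them.

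The time points differed in more members than the cosine describes. A limma F-test over the 6 time points, adjusted over all expressed genes, was below 0.05 in 30 of 42 members (13 GST, 14 UGT and 3 SULT), against 17.6% of all expressed genes, and with Ugt1a as 1 gene in 23 of 35 members and 7 of 11 UGT genes. In 25 members (11 GST, 11 UGT and 3 SULT) both ZT2 samples were below all 10 others, against a background of 9.58%. In 7 members (2 GST and 5 UGT) both were above all others, against 10.4%. With Ugt1a as 1 gene, these positions held for 18 (4 of them UGT) and 7 of 35 members. Without the ZT2 samples, the same F-test over the other 5 time points was below 0.05 in 5 members, Gsta2, Gsta4, Gstm4, Gstm7 and Gstt3, all GST genes, against a background of 4.6%.

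The direction at ZT2 differed between classes. All 4 Gsta genes, 3 of 7 Gstm, 2 of 3 Gstt, all 8 Ugt1a, Ugt2a3, both Ugt3a and 3 of 4 expressed Sult1 genes were lowest at ZT2. Both Gstp genes and 5 of 7 Ugt2b genes were highest. Gsta1 passed the minimum in 1 sample of ZT10, Ugt2b37 only in the 2 ZT2 samples, and Gstp2 only in these and ZT22 replicate 2, so the position at ZT2 of these genes is tied to the minimum. Among the 38 members with a mean over all samples above 8 rpbp, 24 were lowest and 5 highest at ZT2, against 10.3% and 10.2% of the 8953 such genes. With Ugt1a as 1 gene these were 17 and 5 of 31. The summed signal of the Ugt1a genes, which counts shared reads more than once, was 2827 and 2854 rpbp at ZT2 and 3865 to 7301 in the other samples. That of the 7 Ugt2b genes was 4932 and 4981 rpbp at ZT2 and 3521 to 4769 elsewhere. The pairs of ranges do not overlap, and they lie on opposite sides.

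**Figure D3:**
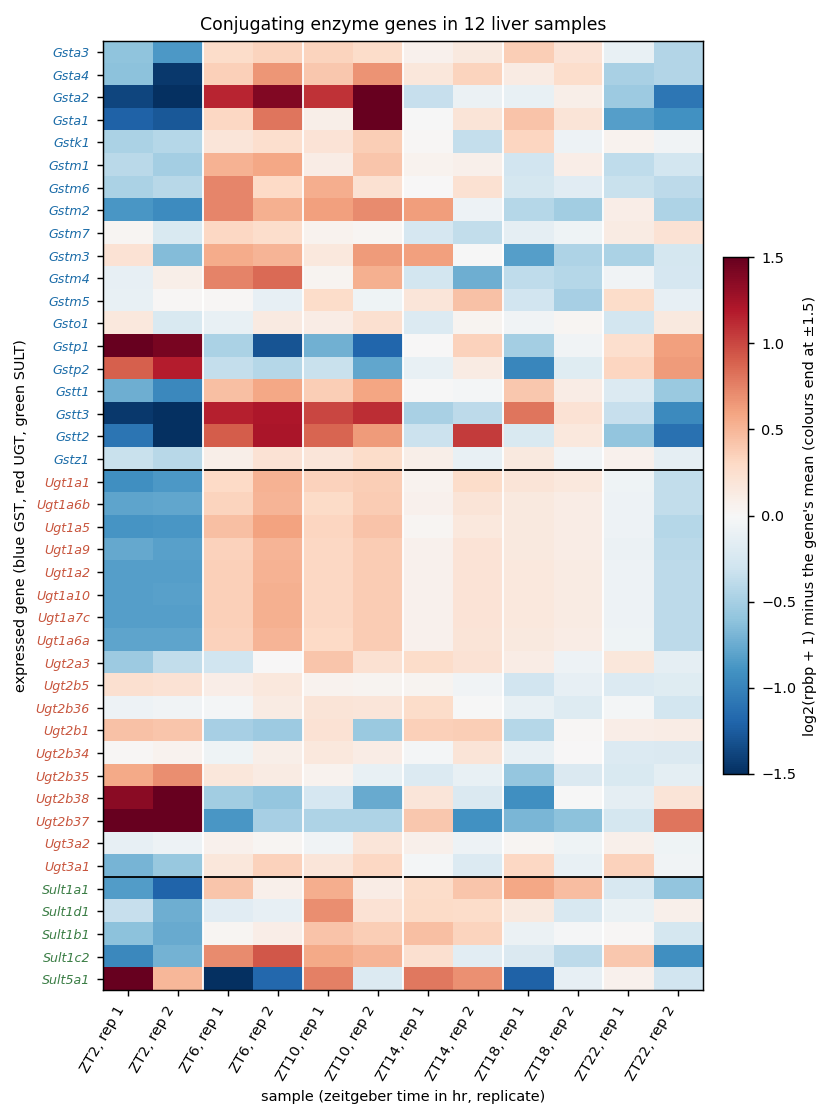
log2(rpbp + 1) minus the mean of the gene, for the 42 expressed members (rows, by family and class) in the 12 samples (columns, by zeitgeber time and replicate). The left columns, ZT2, are blue in every Ugt1a and Gsta gene, and red in the Gstp and several Ugt2b genes.

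ZT22 replicate 2, the other sample with high Saa1, lay mostly to the ZT2 side of ZT22 replicate 1. Among the 25 members lowest at ZT2, it was below ZT22 replicate 1 in 22 (88%) and below the 9 remaining samples in 17 (68%), against 77.7% and 42.4% of the 977 such genes in the whole table. With Ugt1a as 1 gene the counts were 15 (83.3%) and 10 (55.6%) of 18. In all 7 members highest at ZT2 it was above ZT22 replicate 1, against 64.6% of the 1056 such genes. It was above the 9 remaining samples in 4 of these 7 (57.1%), against 27.7% of such genes. Of these 7, Gstp2 and Ugt2b37 passed the minimum only in ZT2 samples or in ZT22 replicate 2 as well. In all of the other 5, with a mean above 8 rpbp, ZT22 replicate 2 was above ZT22 replicate 1, against 65.1% of such genes. It was above the 9 remaining samples in 2 of these 5 (40%), against 28.6%, and not in Ugt2b1, Ugt2b5 and Ugt2b35.

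The alpha class GST genes, which include the main forms of hepatocytes, were lowest at ZT2 throughout. Gsta3 measured 1802 and 1503 rpbp at ZT2 (replicate 1, then replicate 2), 3309 and 3434 at ZT6, 3441 and 3315 at ZT10, 2847 and 3028 at ZT14, 3529 and 3142 at ZT18, then 2535 and 2008 at ZT22. It was thus low at ZT2 and ZT22 and on a plateau from ZT6 to ZT18, with both ZT2 samples below all others. Its means were 1652 ± 211 rpbp at ZT2 and 3378 ± 89.2 at ZT10 (SD, n = 2), its F24 was 0.53 (permutation p = 0.039) and its peak 12.1 hr, and the F-test over time points (limma) gave an adjusted p of 0.00616. Without ZT2 its F24 was 0.41 (permutation p = 0.142) and the call was lost, as it also was without either ZT10 sample, ZT18 replicate 2, ZT22 replicate 2 or a single ZT2 sample.

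Gsta4, the form active on the lipid peroxidation product hydroxynonenal, ranged from 32.8 to 145.5 rpbp. It measured 59.3 and 32.8 rpbp at ZT2, 117 and 145 at ZT6, 121 and 146 at ZT10, 103 and 115 at ZT14, 99.2 and 110 at ZT18, then 64.6 and 67.2 at ZT22. Its F24 was 0.66 (permutation p = 0.0078) with a peak at 11 hr, and the call was kept without ZT2 (F24 of 0.73) and without each single sample. Gsta2 measured 3.72 and 2.56 rpbp at ZT2, 26.0 and 31.0 at ZT6, 25 and 37.2 at ZT10, 8.64 and 10.5 at ZT14, 10.3 and 12.0 at ZT18, then 7.4 and 4.80 at ZT22. High values of Gsta2 were confined to ZT6 and ZT10, its amplitude was 14.5 and its F24 0.64 (permutation p = 0.0115; 0.78 without ZT2). Its near copy Gsta1 stayed between 0 and 3.20 rpbp except for 10.2 rpbp in ZT10 replicate 2.

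The mu class (Gstm), a cluster of 7 genes on chromosome 3 with broad activity on electrophiles, held 5 of the called GST genes and 4 of the strong ones. Gstm4 had the highest F24 of the GST genes, 0.69 (permutation p = 0.0014, adjusted permutation p = 0.0355). It measured 63.2 and 73.6 rpbp at ZT2, 116 and 125 at ZT6, 71.0 and 100.2 at ZT10, 57.0 and 41.1 at ZT14, 52.9 and 51.0 at ZT18, then 66.4 and 57.9 at ZT22. Both ZT6 samples were above all others, the ZT2 samples were in the middle of the range, and F24 was 0.87 without them (permutation p = 0.0002). Gstm6 measured 130 and 135 rpbp at ZT2, 301 and 223 at ZT6, 263 and 212 at ZT10, 181 and 211 at ZT14, 150.2 and 160.0 at ZT18, then 143 and 137 at ZT22, with an F24 of 0.68 (permutation p = 0.0075) and a peak at 9.22 hr.

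Gstm1, the most abundant of the class, measured 1500 and 1394 rpbp at ZT2, 2849 and 2965 at ZT6, 2153 and 2642 at ZT10, 2068 and 2096 at ZT14, 1632 and 2127 at ZT18, then 1521 and 1643 at ZT22. Its highest samples were both of ZT6, its F24 was 0.59 (permutation p = 0.0241), and 0.75 without ZT2. Gstm2 (55.6 to 180 rpbp, F24 of 0.65) and Gstm3 (46.6 to 131 rpbp, F24 of 0.65) peaked at 9.73 and 8.76 hr. Gstm7 was not called over 12 samples (F24 of 0.36, permutation p = 0.137), while over the 10 samples without ZT2 its F24 was 0.94 (permutation p = 0.0003) with a peak at 2.91 hr. Its ZT6 samples, at 115 and 111 rpbp, were the highest, followed by those of ZT22 (100.6 and 108 rpbp), while the ZT2 samples were at 94.5 and 79.0 rpbp. Gstm5 stayed between 10.1 and 20.2 rpbp (F24 of 0.12).

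Gstp1, of the pi class, ran opposite to these genes. It measured 3453 and 3030 rpbp at ZT2, 812 and 462 at ZT6, 685 and 494 at ZT10, 1135 and 1435 at ZT14, 795 and 1095 at ZT18, then 1345 and 1730 at ZT22. Both ZT2 samples were above all others, and the mean at ZT2 (3241 ± 299 rpbp, SD, n = 2) was 5.50 times that at ZT10 (589 ± 135 rpbp). The F-test over time points (limma) gave an adjusted p of 0.0052, while F24 was 0.42 (permutation p = 0.0752), short of a call. Gstp2, at 2.28 to 13.6 rpbp, had an F24 of 0.50 (permutation p = 0.0423). Gstp1 was 122 to 349 times as high as Gstp2, the correlation between them over the 12 samples was 0.93, and reads of the abundant copy that were placed on the other cannot be told apart from its own signal.

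The 3 theta class genes lie close together on chromosome 10. Gstt3 measured 37.5 and 27.8 rpbp at ZT2, 236 and 243 at ZT6, 210 and 226 at ZT10, 74.2 and 79.3 at ZT14, 182 and 122 at ZT18, then 81.6 and 53.4 at ZT22. It was high at ZT6 and ZT10, lower at ZT14 and higher again at ZT18, which a single cosine takes up only in part (F24 of 0.43, permutation p = 0.0905). The F-test over time points (limma) gave an adjusted p of 0.00136, and 0.0155 without ZT2, and the ZT6 mean was 7.34 times the ZT2 mean. Gstt1 (239 to 710 rpbp, F24 of 0.48, permutation p = 0.0647) showed the same lowest and highest time points, ZT2 and ZT6 by time-point means. Gstt2 (16.2 to 112 rpbp) was called with an F24 of 0.60. The dehydroascorbate reductase Gsto1 was the steadiest GST gene, with an amplitude of 1.43 and samples between 104 and 149 rpbp, and neither Gsto1, Gstk1 (157 to 281 rpbp) nor Gstz1 (802 to 1293 rpbp) was called.

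The 8 Ugt1a genes (Ugt1a1, Ugt1a2, Ugt1a5, Ugt1a6a, Ugt1a6b, Ugt1a7c, Ugt1a9 and Ugt1a10) had F24 values of 0.51 to 0.56 and peaks between 10.7 and 11.5 hr. The values listed for single genes of the locus hold shared reads and are not levels of single enzymes. Ugt1a1, of whose exon bases 23.7% also overlap annotated genes outside the members, measured 456 and 477 rpbp at ZT2, 1063 and 1241 at ZT6, 1104 and 1122 at ZT10, 897 and 1053 at ZT14, 991 and 968 at ZT18, then 828 and 673 at ZT22. Both ZT2 samples were below all others, and in both series ZT22 was the next lowest time point. Ugt1a1 had a permutation p of 0.029 (0.0232 without ZT2, F24 of 0.63), and the F-test over time points (limma) gave an adjusted p of 0.00294, and 0.118 without ZT2. The signal listed for Ugt1a9 (F24 of 0.56) was 370 and 358 rpbp at ZT2, 798 and 898 at ZT6, 778 and 823 at ZT10, 657 and 727 at ZT14, 695 and 681 at ZT18, then 590 and 476 at ZT22. The permutation p of the 8 genes lay between 0.028 and 0.0468. The calls of the Ugt1a genes were not robust to single samples: only 2 or 3 UGT genes were called without ZT10 replicate 1, ZT10 replicate 2, ZT14 replicate 2 or ZT22 replicate 2.

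Among the Ugt2 genes, a cluster on chromosome 5 that conjugates steroids and bile acids among other compounds, the patterns diverged. Ugt2a3 measured 378 and 430 rpbp at ZT2, 449 and 555 at ZT6, 742 and 648 at ZT10, 670 and 645 at ZT14, 598 and 527 at ZT18, then 624 and 504 at ZT22. Its highest samples were of ZT10 and ZT14, with an F24 of 0.64 (permutation p = 0.0145) and a peak at 13.3 hr, and the call was lost without ZT2 (F24 of 0.43). Ugt2b35 went the other way, with 382 and 419 rpbp at ZT2, 290 and 281 at ZT6, 266 and 237 at ZT10, 223 and 239 at ZT14, 171 and 221 at ZT18, then 219 and 232 at ZT22. Both ZT2 samples were above all others and those of ZT18 among the lowest, with an F24 of 0.61 (permutation p = 0.0055) and 0.78 without ZT2.

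Ugt2b5, which had the highest UGT mean with samples that overlapped those of Ugt2b36, measured 1435 and 1421 rpbp at ZT2, 1304 and 1355 at ZT6, 1260 and 1257 at ZT10, 1256 and 1180 at ZT14, 999 and 1121 at ZT18, then 1057 and 1074 at ZT22. It followed a shallow decline from ZT2 to ZT18, and with an F24 of 0.66 its amplitude of 1.44 kept it from a call. Ugt2b36 (970 to 1427 rpbp, F24 of 0.65, amplitude of 1.47) and Ugt2b34 (454 to 604 rpbp, F24 of 0.55, amplitude of 1.33) also passed the limits of p and F24 but not that of amplitude. Ugt2b1 followed no single wave, and its ZT10 samples differed widely, with 1393 and 1373 rpbp at ZT2, 725 and 704 at ZT6, 1193 and 697 at ZT10, 1317 and 1328 at ZT14, 763 and 1039 at ZT18, then 1096 and 1106 at ZT22, and its F24 was 0.07. Ugt2b38 was at 62.1 and 76.4 rpbp at ZT2 and 12.0 to 27.3 elsewhere, and Ugt2b37 at 10.2 and 13.9 rpbp and 1.00 to 5.52 elsewhere. The correlation of these 2 genes over 12 samples was 0.97, and their coding sequences are 94.1% identical. Ugt3a2, of a family that uses other sugar donors, was the steadiest of all expressed members, with an amplitude of 1.24 and samples from 410 to 508 rpbp.

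**Figure D4:**
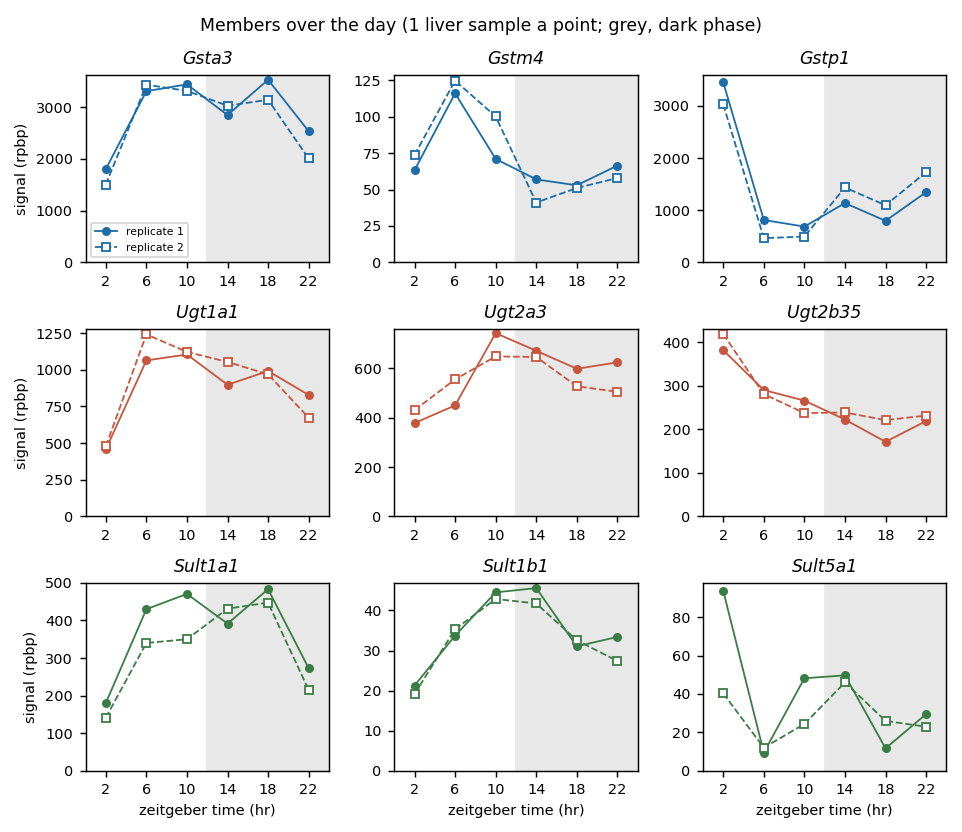
Signal in rpbp, with axes from 0, against zeitgeber time in hr for 9 members, each point 1 liver sample (filled, replicate 1; open, replicate 2; grey, dark phase). Gsta3, Ugt1a1 and Sult1a1 are low at ZT2, Gstp1 and Ugt2b35 are highest there, and Sult1b1 follows a single wave with its highest samples at ZT10 and ZT14.

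Sult1b1, a sulfotransferase for thyroid hormone and phenols, had the highest F24 of all members, 0.83 (permutation p = 0.0005, adjusted permutation p = 0.0228). It measured 21.2 and 19.1 rpbp at ZT2, 33.7 and 35.3 at ZT6, 44.5 and 42.9 at ZT10, 45.6 and 41.8 at ZT14, 31.0 and 32.6 at ZT18, then 33.4 and 27.4 at ZT22. The series followed each other closely, the 4 samples of ZT10 and ZT14 were above all others, and F24 was 0.81 without ZT2 (permutation p = 0.009). Sult1a1 measured 180 and 141 rpbp at ZT2, 430 and 340 at ZT6, 471 and 350 at ZT10, 392 and 431 at ZT14, 483 and 448 at ZT18, then 273 and 215 at ZT22. It was low at ZT22 and ZT2 and high in between, with an F24 of 0.63 (permutation p = 0.0165), and 0.42 without ZT2, where the call was lost. Sult1d1, active on catecholamines, measured 133 and 102 rpbp at ZT2, 150 and 155 at ZT6, 275 and 196 at ZT10, 207 and 204 at ZT14, 188 and 143 at ZT18, then 157 and 178 at ZT22. Its ZT2 samples were the lowest, with an F24 of 0.57 (permutation p = 0.0148), and its call too was lost without ZT2.

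Sult1c2 had values of 2.76 to 13.0 rpbp, with the highest at ZT6, and was not called over 12 samples (F24 of 0.49, permutation p = 0.055). It was called without both ZT2 samples (F24 of 0.75) and without either ZT2 replicate 1 or ZT22 replicate 1. Sult5a1 measured 93.8 and 40.3 rpbp at ZT2, 9.36 and 11.9 at ZT6, 48.2 and 24.3 at ZT10, 49.7 and 46.0 at ZT14, 11.6 and 25.9 at ZT18, then 29.5 and 22.9 at ZT22. Its values went up and down more than once a day, its F24 was 0.01, and the F-test over time points (limma) gave an adjusted p of 0.0395, while its ZT2 samples differed widely from each other.

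Over the 10 samples without ZT2, 20 members were called (9 GST, 9 UGT and 2 SULT), against 15.1% of all expressed genes, and 18 of the 23 calls (78.3%) were held, against 63.3% of the calls over all genes. With Ugt1a as 1 gene, 13 were called without ZT2 and 11 of 16 calls (68.8%) were held. Lost were Gsta3, Gstp2, Ugt2a3, Sult1a1 and Sult1d1, and gained were Gstm7 and Sult1c2. After adjustment, 2 members had a permutation p below 0.05 without ZT2, against a background of 1.82%. These were Gstm4 (adjusted permutation p = 0.0358) and Gstm7 (0.0387), while Sult1b1 (0.108) no longer passed.

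**Figure D5:**
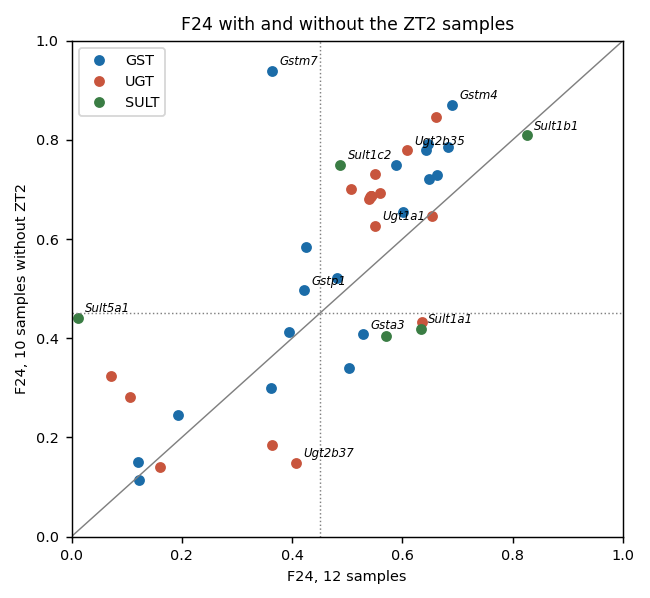
F24 over the 10 samples without ZT2 against F24 over all 12 samples, for the 42 expressed members, with a line of equality and dotted lines at 0.45. Gstm7 moves from 0.36 to 0.94, and Gsta3, Sult1a1 and Ugt2a3 drop below the limit.

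Genes that supply the cofactors, and other genes around these families, were taken from lists by known role, whose counts stand beside the background of 19.1% rhythmic over 12 samples and 15.1% without ZT2. Of 5 expressed genes of glutathione supply, 2 were rhythmic: Gsr, glutathione reductase (F24 of 0.64, peak at 3.41 hr), and Chac1, which degrades glutathione (F24 of 0.50, peak at 10.4 hr), while Gclc and Gclm, the subunits of the enzyme that limits synthesis, were not called (F24 of 0.29 and 0.30). Over the 10 samples without ZT2, Gclc was called (F24 of 0.71, permutation p = 0.0127), and Gsr (F24 of 0.47, permutation p = 0.121) and Chac1 (F24 of 0.53, permutation p = 0.0574) were not. Of 4 genes of UDP-glucuronic acid supply, 1 was rhythmic, Ugp2, which makes UDP-glucose (F24 of 0.58, peak at 9.22 hr), and Ugdh, which oxidises it, had an F24 of 0.43. Without ZT2 both were called. Of 5 genes of PAPS supply, 2 were rhythmic: Papss2, the PAPS synthase with the higher signal here (F24 of 0.83, peak at 11.3 hr, adjusted permutation p = 0.0211), and the sulfate transporter Slc26a1 (F24 of 0.50, peak at 15 hr), of which Papss2 alone was called without ZT2.

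Among other conjugating enzymes, the methyltransferase Inmt was rhythmic (F24 of 0.71, peak at 10.9 hr), and the membrane-bound Mgst1, at a mean of 10032 rpbp, was not (F24 of 0.31). Of 3 expressed deconjugating enzymes, 1 was called, the sulfatase Arsa (F24 of 0.57, peak at 7.38 hr). Of 14 transcription factors that are known to act on these families or on the clock output in liver, 6 were rhythmic: the PAR bZIP factors Dbp (F24 of 0.63, peak at 7.36 hr), Tef (0.80, 9.96 hr) and Hlf (0.50, 11 hr), the xenobiotic receptors Nr1i2 (0.70, 13.1 hr) and Nr1i3 (0.72, 12.0 hr), and Ahr (0.54, 12.2 hr). Nfe2l2 (NRF2) and its inhibitor Keap1 had F24 values of 0.03 and 0.04. Without ZT2, Nr1i2 (F24 of 0.53, permutation p = 0.0804) and Ahr (F24 of 0.41, permutation p = 0.167) were not called, Hlf missed the limit of amplitude alone (F24 of 0.69, permutation p = 0.0242), and Ppara was called, which makes 4. In this list, 7 of 14 genes were lowest at ZT2 and 1, Rxra, was highest, where the backgrounds were 9.58% and 10.4%.

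Promoters of 44 members could be matched by symbol in RefSeq (GRCm38.p6, 250 bases before to 50 after the start, 54 promoters). Searched on both strands, the E-box CACGTG was in 0 of the 54 promoters, against 7.15% of 32851 promoters of all genes. The D-box (TTATGTAA, TTACGTAA or TTACATAA) was in 1, that of Ugt2b1, against 1.06%. The antioxidant response core TGACNNNGC was in 3 (5.56%), those of Gsta3, Gstm5 and Gstm7, against 12.4%, and the Ah receptor core GCGTG in 11 (20.4%) against 32.4%. A match is a description of letters, and its absence says only that they are not in this window. The 250 bases before the start of Gsta3 (GRCm38, chr1:21240335-21240584, plus strand) are shown as the only ones among the promoters of rhythmic members with the antioxidant response core, in capitals, which starts 121 bases before the start.
Gsta3: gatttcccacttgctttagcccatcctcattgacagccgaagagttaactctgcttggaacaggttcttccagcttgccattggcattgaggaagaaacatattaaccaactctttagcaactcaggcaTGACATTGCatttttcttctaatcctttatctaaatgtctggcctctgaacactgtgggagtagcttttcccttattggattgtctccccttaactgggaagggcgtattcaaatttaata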

How the data were processed

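Poly(A) RNA of 12 liver samples (6 time points, 2 series) was sequenced. The authors mapped reads to mm9 with TopHat, kept unique ones, summed base coverage over the flattened UCSC exons of each gene without strand, divided it by exon length and scaled it to 10000000 uniquely mapped sequences; CASAVA 1.8 is also named in the submitters' processing notes. The deposited signal is this coverage in rpbp. The columns headed ZT20 belong to the samples that the labels place at ZT22, and were treated so. Of the authors' 3 result columns, the deposited F24 score is a fraction of variance, the deposited p-value is its permutation p and the third is the phase. None of them was used. There were 0 other columns of samples.

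The signal was multiplied by 4, and 10198 genes exceeded 8 rpbp in 1 sample or more. F24 and peak were fitted at 24 hr to the 12 values. For the permutation p, the 12 values were shuffled 10000 times with seed 1, with Benjamini-Hochberg adjustment over the 10198 genes. limma F-tests (version 3.58.1, R 4.3.3) used log2(rpbp + 1), with a cosine or with the 6 time points. Python 3.11.15 with numpy 2.4.6 and pandas 2.3.3 was used for the rest, and the scripts were tested on simulated data. Exon sharing and coding sequences came from the NCBIM37 (mm9) genome with GENCODE vM1, with windows of 50 bases for near copies, and promoters from RefSeq.

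The members and gene lists were chosen with earlier results of these data known. Named were, by family, every called member, the 4 with the highest mean and the expressed member with the lowest amplitude, and values in every sample were given for at least the 3 called members of highest F24 and the most abundant one. Other members were named after their values were seen. Part of the list of other conjugating enzymes is not reported here. Same-numbered samples of different time points did not deviate together (15 correlations of -0.15 to 0.21, 2 above 0.1), so the series number was not used as a pairing. Alternatives were other pseudocounts, expression minimums, size factors, a replicate block, limma in place of the permutation, each sample or series left out and, chosen after seeing the data, the tests over time points, the positions at ZT2 and the removal of ZT2 with or without ZT22 replicate 2.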

Additional observations from a re-analysis of the deposited data

How the results depend on the processing

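F24 has no sign, so the settings are compared by calls, and fitted peaks of members that were not called could move far (Sult5a1 from 2.64 to 13.9 hr without ZT2). Of the 23 calls, 21 were lost with the adjusted permutation p (leaving 1 GST, 0 UGT and 1 SULT gene) and 16 with the limma F-test of a 24 hr cosine, which left 4 GST, 1 UGT and 2 SULT genes, 7 in all. With Ugt1a counted as 1 gene, 3 UGT genes were called. Leaving out 1 sample or 1 series in turn gave 0 to 13 GST, 0 to 11 UGT and 0 to 4 SULT calls, and 0 to 2 members with an adjusted p below 0.05. The lowest counts of calls come from a single series, whose 6 values cannot give a p below 0.0167. Both adjusted calls were also lost without ZT10 replicate 1 and without ZT14 replicate 1, and UGT calls fell to 2 without ZT10 replicate 1, ZT10 replicate 2 or ZT22 replicate 2. Without ZT2 and ZT22 replicate 2, there were 8 GST, 6 UGT and 1 SULT calls and 0 with an adjusted p below 0.05. The replicate block, which was no true pairing, removed 3 calls and left 0 members with an adjusted p below 0.05, against 2 without it. With no expression minimum, 1 member had an adjusted p below 0.05. The count of members that differed among time points was 30, 21 to 29 without single samples, and 5 without ZT2. The counts of members lowest (25) and highest (7) at ZT2 moved by less than 1.5 times under the other settings tried. The cause of these changes was not tested, except where fewer samples lowered the reach of the test.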
